A study of Mus musculus with 9 samples.

Results

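The D cyclin genes Ccnd1, Ccnd2 and Ccnd3 and the genes of 7 inhibitors of cyclin-dependent kinases (CDKs), Cdkn1a, Cdkn1b, Cdkn1c, Cdkn2a, Cdkn2b, Cdkn2c and Cdkn2d, were followed in sorted cells of the embryonic mouse forelimb. The 10 genes were chosen by name, and every probe set annotated to one of their symbols was used, which gave 22 of the 45101 probe sets on the array. The cells came from Scx-GFP embryos, in which green fluorescent protein reports the tendon gene Scx, at embryonic stages E11.5, E12.5 or E14.5. All samples carried the reporter, none was treated, and forelimb cells dissociated with trypsin were sorted for GFP on either of 2 instruments, and the labels do not say which sample went through which. Each stage had 3 arrays, named A, B and C, and 9 arrays were made in all. Whether the arrays of a stage stand for different litters is not in the labels, and p-values measure the spread between these samples only. Since cells were kept by the reporter, a difference between stages can reflect which cells the reporter marked, and in bulk RNA fewer cells with a transcript and less of it per cell cannot be told apart.

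D cyclins bind and activate the kinases CDK4 and CDK6, which phosphorylate the retinoblastoma protein and its relatives and so release E2F factors that drive entry into S phase. The CDKN2 proteins, also called INK4 proteins, bind CDK4 and CDK6 and keep D cyclins off them. The CDKN1 proteins, also called Cip/Kip proteins, bind cyclin and CDK complexes more widely, above all those of CDK2. In limb and skeletal tissues these inhibitors are known for accompanying cell cycle exit in cartilage and muscle, and Cdkn1c is in addition an imprinted gene expressed from the maternal copy.

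Promoter sequences from RefSeq (build GRCm38.p6) were matched by symbol for 7 of the 10 genes, with 11 start sites. Each runs from 250 bases before to 50 bases after an annotated start. Those of Ccnd3 and Cdkn2c are shown because the signals of both genes rose, and capitals mark each GC box, GGGCGG on either strand. Which of a gene's starts the array reads was not resolved.
Ccnd3, first start, chr17:47504801-47505100, plus strand: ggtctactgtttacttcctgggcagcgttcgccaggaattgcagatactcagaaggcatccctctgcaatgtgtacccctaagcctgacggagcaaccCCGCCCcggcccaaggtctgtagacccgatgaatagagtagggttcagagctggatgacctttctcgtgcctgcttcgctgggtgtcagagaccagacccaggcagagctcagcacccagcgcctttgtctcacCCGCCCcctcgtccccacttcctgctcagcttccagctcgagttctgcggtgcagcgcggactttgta
Ccnd3, second start, chr17:47593217-47593516, plus strand: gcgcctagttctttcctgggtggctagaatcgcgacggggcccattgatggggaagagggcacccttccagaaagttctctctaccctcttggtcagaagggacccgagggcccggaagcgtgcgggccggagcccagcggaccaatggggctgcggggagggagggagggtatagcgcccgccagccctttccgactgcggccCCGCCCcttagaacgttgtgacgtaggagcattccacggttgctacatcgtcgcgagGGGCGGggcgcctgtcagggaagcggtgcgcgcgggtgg
Cdkn2c, first start, chr4:109666707-109667006, minus strand: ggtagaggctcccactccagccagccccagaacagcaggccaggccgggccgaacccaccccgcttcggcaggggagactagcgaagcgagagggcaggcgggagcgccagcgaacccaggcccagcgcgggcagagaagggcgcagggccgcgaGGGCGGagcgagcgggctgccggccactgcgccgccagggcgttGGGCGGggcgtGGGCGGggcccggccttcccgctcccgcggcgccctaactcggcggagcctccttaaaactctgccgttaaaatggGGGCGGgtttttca
Cdkn2c, second start, chr4:109665323-109665622, minus strand: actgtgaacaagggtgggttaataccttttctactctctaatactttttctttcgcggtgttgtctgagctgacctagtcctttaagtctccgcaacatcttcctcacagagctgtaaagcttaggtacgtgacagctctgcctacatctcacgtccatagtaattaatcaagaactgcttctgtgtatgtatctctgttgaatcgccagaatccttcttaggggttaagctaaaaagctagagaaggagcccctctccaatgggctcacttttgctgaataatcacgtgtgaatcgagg
The motif searches were on both strands of all 32851 promoters of 300 bases in the table. A GC box was present at 1 or more starts of all 7 matched genes and in 9 of their 11 promoters, against 35.7% of all promoters. The first start of Cdkn2c held 4 GC boxes, its second start held none, and each start of Ccnd3 held 2. A CCAAT box was found in 5 of the 11 promoters (37.4% of all), among them the second starts of Ccnd3 and Cdkn2c. The E2F site letters TTTCCCGC, TTTGGCGC, TTTCGCGC and TTTGCCGC were found in 1 of the 11, the first start of Cdkn2a, and in 2.26% of all promoters. No member promoter held TATAAA (13.6% of all). These are matches of letters only.

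The deposited values are MAS5 signals, 1 linear intensity for each probe set and array, already scaled by the authors so that the arrays share a trimmed mean. Median signals ran from 68.7 to 118 over the 9 arrays and were highest in the letter C array of each stage. Signals under 22.7, the 25th percentile of all signals, were treated as a floor. Tnmd, which encodes tenomodulin, had signals of 42.0, 14.4 and 7.80 at E11.5 and of 9398, 6005 and 8797 at E14.5, so a defining marker of mature tendon cells was near or under the floor at the first stage. Scx itself was between 8692 and 21828 in all arrays. The ratio of 3' to 5' Gapdh control signals, a measure of RNA integrity, was between 0.717 and 0.831, with its lowest value in E14.5 B. This Gapdh ratio is the 3' to 5' covariate used below. The same ratio for beta-actin was between 1.27 and 1.53, lowest in array A and highest in array C of each stage.

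Of the 10 genes, 8 had a signal above 90.6 (the median over the whole table) in 3 or more arrays and were tested, and 19 of their 22 probe sets passed the same filter. Stages were compared on log2 signals with limma in a single fit of all 9 arrays, adjusted by Benjamini-Hochberg over 11575 genes, with a call at adjusted p values under 0.05. Between E11.5 and E14.5, 3 of the 8 tested genes rose and none fell; over all genes 22.9% rose, 17.7% fell and 40.5% were called in either direction, so the members' share was near the background. Those that rose were Cdkn2c, Cdkn1c and Ccnd3. The same 3 rose between E12.5 and E14.5, where 12.6% of all genes rose and 22% were called; of those called 57.6% rose, and 69.7% after median centring of the arrays. Between E11.5 and E12.5 none of the 8 was called by limma, against 3.55% of all genes, and 3 (Ccnd2, Cdkn1c and Cdkn2c) had an unadjusted p under 0.05, against 16% of all genes. No member was called for a difference between the intervals (limma, 0.769% of all genes), and none had an unadjusted p under 0.05 for it (11.4% of all genes). Of the member probe sets none was called for that difference by limma (0.354% of all probe sets), and 4, all of Ccnd2, had an unadjusted p under 0.05 (8.62% of all probe sets). Arrays of the compared stages did not overlap for 3 of the 8 genes between E11.5 and E12.5 (23.6% of all genes), 4 between E12.5 and E14.5 (42.5%) and 5 between E11.5 and E14.5 (51.4%). Among the 19 probe sets, none was called by limma between E11.5 and E12.5 (1.35% of all probe sets), 2 between E12.5 and E14.5 (14.1%) and 3 between E11.5 and E14.5 (31.2%); 8 had an unadjusted p under 0.05 in the first of these, against 2610 of all 20885. The F-test for any difference among the stages called the same 3 genes (33.7% of all genes). The median log2 change of the 8 genes from E11.5 to E14.5 was 0.44, beside 0.00345 over all genes tested, and the median size of change without its sign was 0.44, beside 0.41 over all genes.

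**Figure D1:**
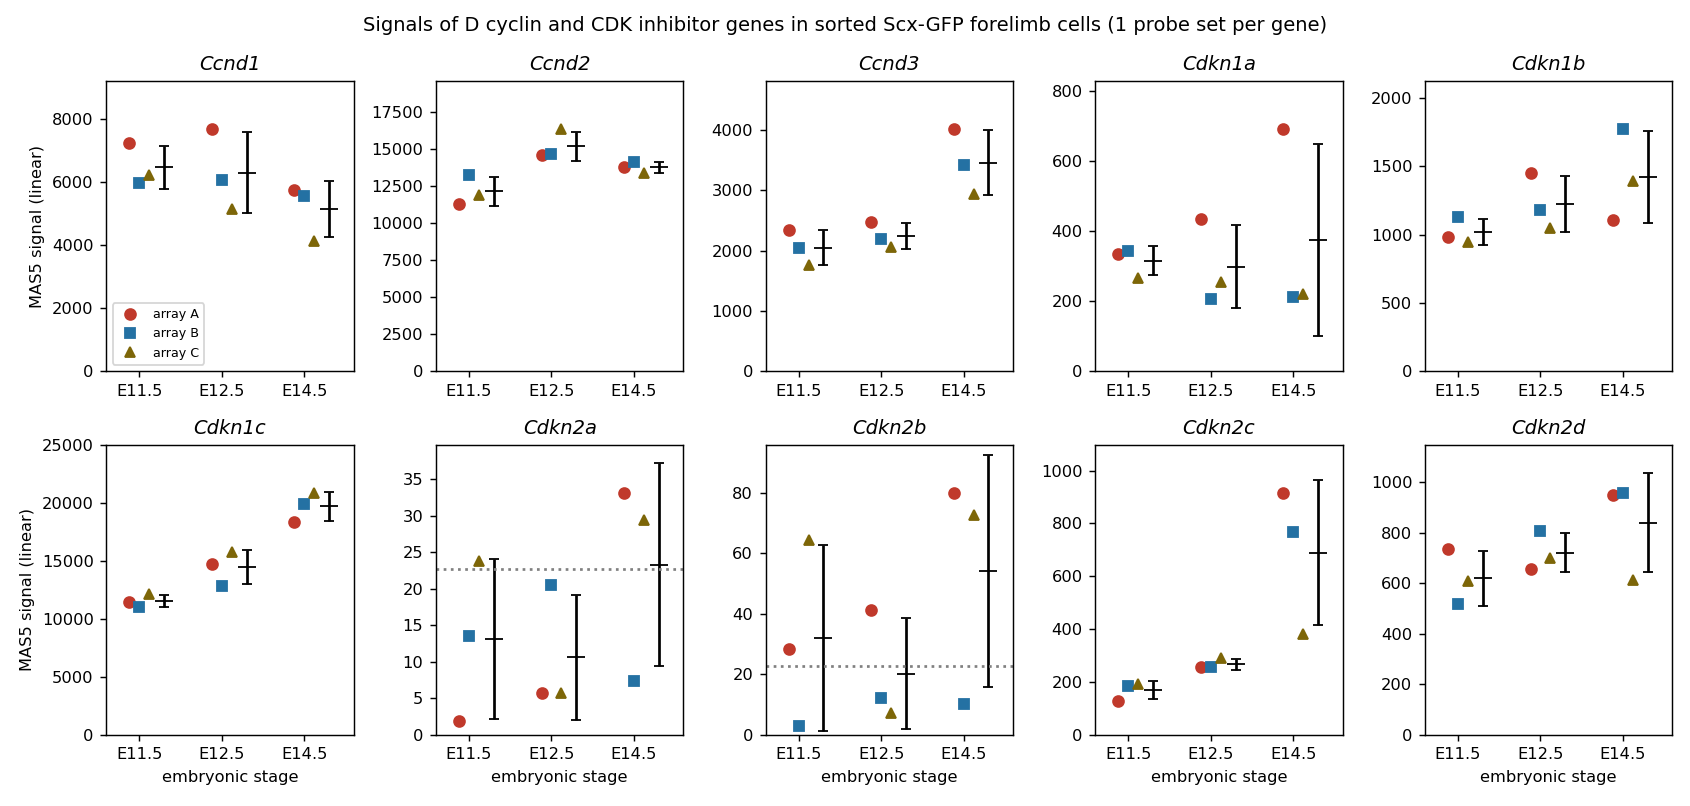
MAS5 signal on a linear axis from 0 (vertical) by embryonic stage (horizontal) for the probe set that represents each of the 10 genes. Points are the single arrays A, B and C, bars are the mean with the SD of 3 arrays, and the dotted line for Cdkn2a and Cdkn2b is the floor of 22.7. Cdkn1c and Cdkn2c show 3 separate levels, as does Ccnd2 with its highest at E12.5. Ccnd3 stands higher at E14.5 only, and the E14.5 points of Cdkn1a are spread from 211 to 691.

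Among the INK4 genes, Cdkn2c, which encodes p18INK4c, had the largest change of any of the 8 tested genes. Its signals were 129, 187 and 190.5 at E11.5, 255, 256 and 291 at E12.5 and 915, 769 and 383 at E14.5, in the order A, B, C. Every array of a later stage lay above every array of an earlier one, and the 3 arrays of E14.5 were further apart than those of the other stages. The mean rose from 169 ± 34.1 (SD, n = 3) at E11.5 to 267 ± 20.4 at E12.5 and 689 ± 275 at E14.5. The log2 change from E11.5 to E14.5 was 1.96 ± 0.30 (SE), a 3.89-fold rise (adjusted p = 8.4e-04, limma). It was 0.68 ± 0.30 from E11.5 to E12.5 (adjusted p = 0.302) and 1.28 ± 0.30 from E12.5 to E14.5 (adjusted p = 0.0153). The later of these intervals lasted longer, and the difference between the intervals, 0.59 ± 0.52, was not called (adjusted p = 0.728). The call from E11.5 to E14.5 held in all 21 alternative settings (log2 1.53 to 2.33, highest adjusted p 0.0141). That from E12.5 to E14.5 was lost in 2 of 21, without the letter A arrays (0.99, adjusted p = 0.0994) and without the filter (adjusted p = 0.0524).

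Cdkn2d, the gene of p19INK4d, had signals of 736, 518 and 608 at E11.5, 659, 806 and 699.5 at E12.5 and 949, 958 and 613 at E14.5. E14.5 A and B were the highest of the 9 arrays, while E14.5 C lay within the range of E11.5. The log2 change from E11.5 to E14.5 was 0.42 ± 0.21 (95% interval -0.0408 to 0.885, adjusted p = 0.132) and was not called. Without E14.5 C it was 0.63 and was called (adjusted p = 0.0266). E14.5 C was also the lowest of the E14.5 arrays for Cdkn2c.

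Cdkn2a, which encodes p16INK4a and, in another reading frame, the p53 activator p19ARF, and its neighbour Cdkn2b, the gene of p15INK4b, did not pass the filter. The probe set of Cdkn2a had signals between 1.93 and 33.1, with 3 of the 9 arrays above the floor. That of Cdkn2b had signals between 3.06 and 79.9, with 5 of the 9 arrays above the floor, and its values at E14.5 were 79.9, 10.2 and 72.7. The arrays of the 3 stages overlapped for both genes. Signals this low have no order here, and no fold change is given. Cdkn2c and Cdkn2d were thus the INK4 genes with a measurable signal in every array.

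Among the Cip/Kip genes, Cdkn1c, which encodes p57Kip2, rose between E11.5 and E14.5. Its signals were 11502, 11032 and 12139 at E11.5, 14796, 12868 and 15766 at E12.5 and 18382, 19910 and 20891 at E14.5. No array of one stage overlapped those of another. The mean went from 11558 ± 555 (SD, n = 3) through 14477 ± 1475 to 19728 ± 1264, and the log2 change from E11.5 to E14.5 was 0.77 ± 0.13 (SE), a 1.71-fold rise (adjusted p = 0.00135, limma). From E12.5 to E14.5 it was 0.45 ± 0.13 (adjusted p = 0.0335), and from E11.5 to E12.5 it was 0.32 ± 0.13 (adjusted p = 0.252). The spread between arrays of a stage was small beside the rise, but the later call is close to the threshold and was lost in 8 of 21 alternatives. After median centring of the arrays, which moved the median change of all genes from 0.00345 to -0.20 between E11.5 and E14.5, the change over the whole course was 0.57 with an adjusted p of 0.207.

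Cdkn1b, the gene of p27Kip1, had signals of 985.5, 1128 and 943 at E11.5, 1451, 1178 and 1047 at E12.5 and 1105, 1772 and 1390.0 at E14.5. Stages overlapped, with E14.5 A within the range of E11.5. The log2 change from E11.5 to E14.5 was 0.46 ± 0.20 (95% interval 0.02 to 0.90, adjusted p = 0.0893) and was not called; without E14.5 A it was 0.63 and was called (adjusted p = 0.0301). The second Cdkn1b probe set was dim, between 43.6 and 105, with a change of 0.31 ± 0.36 (adjusted p = 0.565).

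Cdkn1a, the gene of p21Cip1 and a classical target of p53, showed no common direction. Its signals were 335, 343 and 267 at E11.5, 434, 207 and 255.5 at E12.5 and 691, 211 and 221 at E14.5. Array A was the highest at E12.5 and at E14.5, and the other arrays of those stages lay under the E11.5 range. The log2 change from E11.5 to E14.5 was 0.0219 ± 0.44 (95% interval -0.96 to 1.005, adjusted p = 0.975). Without E14.5 A it was -0.54. The other Cdkn1a probe set gave -0.85 ± 0.79 (adjusted p = 0.459), with signals of 336, 27.8 and 133 at E14.5, again with A highest.

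**Figure D2:**
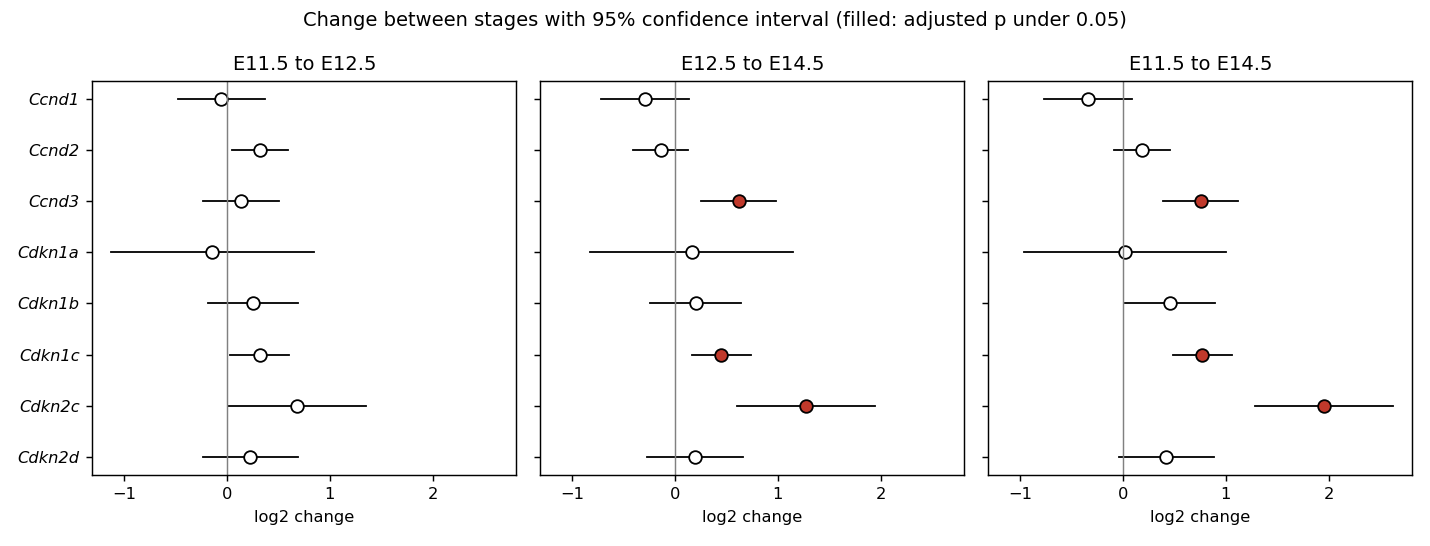
Log2 change (horizontal) of the 8 tested genes (vertical) in each comparison of stages, with 95% confidence intervals from limma; filled points have an adjusted p under 0.05. Cdkn2c, Cdkn1c and Ccnd3 are filled from E12.5 to E14.5 and from E11.5 to E14.5, no point is filled from E11.5 to E12.5, and the interval of Cdkn1a is the widest.

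Of the D cyclin genes, Ccnd3 was the one called. Ccnd3, the gene of cyclin D3, rose by E14.5: its signals were 2341, 2040 and 1767 at E11.5, 2478, 2187 and 2065 at E12.5 and 4014, 3428 and 2942 at E14.5. All E14.5 arrays lay above all others, and the E11.5 and E12.5 arrays overlapped. The mean went from 2049 ± 287 (SD, n = 3) to 2243 ± 212 and 3461 ± 537. The log2 change was 0.14 ± 0.16 from E11.5 to E12.5 (adjusted p = 0.754), 0.62 ± 0.16 from E12.5 to E14.5 (adjusted p = 0.0248) and 0.75 ± 0.16 over the whole course (1.69-fold, adjusted p = 0.00543, limma). The call from E12.5 to E14.5 was lost in 8 of 21 alternatives, among them without E14.5 B (adjusted p = 0.0577), without E14.5 A (0.0737), without E12.5 B (0.0744), without E12.5 C (0.0825), without the letter A arrays (0.0806) and with the 3' to 5' ratio as a covariate (0.0630). The difference between the intervals, 0.48 ± 0.28, was not called (adjusted p = 0.578). The other Ccnd3 probe sets were dim: 1 ran from 58.8 to 127 with a change of 0.20 ± 0.30 from E11.5 to E14.5 (adjusted p = 0.671), and 1 ran from 41.2 to 122 and missed the filter. Averaging all 3 gave 0.40 with an adjusted p of 0.0532, and after median centring the change was 0.56 (adjusted p = 0.276).

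Ccnd2, the gene of cyclin D2, had its highest signals at E12.5. The probe set that represents it had signals of 11301, 13200 and 11852 at E11.5, 14543, 14642 and 16302 at E12.5 and 13786, 14092 and 13370 at E14.5. In this probe set the E12.5 arrays lay above all others and the E14.5 arrays above those of E11.5, without overlap. Such separation was common: 23.6% of all tested genes did not overlap between E11.5 and E12.5, and 42.5% between E12.5 and E14.5. The log2 change was 0.32 ± 0.12 from E11.5 to E12.5 (adjusted p = 0.220) and -0.14 ± 0.12 from E12.5 to E14.5 (adjusted p = 0.435), and the difference between the intervals was -0.46 ± 0.21 (adjusted p = 0.443). None of these was called.

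All 7 Ccnd2 probe sets had a positive change from E11.5 to E12.5, between 0.32 and 0.99 with a median of 0.82, and in 6 of the 7 every E12.5 array lay above every E11.5 array. Fitted over all 20885 probe sets that passed the filter, none was called (adjusted p 0.170 to 0.391), against 1.35% of all probe sets, and all 7 had an unadjusted p under 0.05, against 2610 of all 20885 probe sets. They are annotated to the same gene and were measured on the same arrays, so they are not independent. Which transcripts each reads was not resolved. Pearson's r between their log2 signals over the 9 arrays ran from 0.252 to 0.988, with a median of 0.800. The E11.5 mean rests on array B: in 6 of the 7 probe sets E11.5 B was the lowest of all 9 arrays, as in the probe set with signals of 11044, 6860 and 10742 at E11.5, 14357, 14721 and 15598 at E12.5 and 13616, 13213 and 11357 at E14.5. In the probe set that represents the gene, E11.5 B was instead the highest of the E11.5 arrays. Without E11.5 B the median change from E11.5 to E12.5 was 0.45 (range 0.37 to 0.65, adjusted p 0.266 to 0.708). From E11.5 to E14.5 the median over the 7 was 0.51, and 0.24 without E11.5 B. The E14.5 arrays overlapped those of E12.5 in most of the 7 probe sets, and those of E11.5 in most.

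Ccnd1, the gene of cyclin D1, had lower signals at E14.5 that did not pass the test. Its signals were 7243, 5960 and 6215 at E11.5, 7676, 6074 and 5157 at E12.5 and 5750, 5569 and 4119 at E14.5. In this probe set, which represents the gene, the E14.5 arrays lay under those of E11.5 but overlapped those of E12.5. A separation of E11.5 and E14.5 was seen in 51.4% of tested genes. The log2 change from E11.5 to E14.5 was -0.34 ± 0.19 (95% interval -0.77 to 0.0845, adjusted p = 0.181). The other Ccnd1 probe sets gave -0.42 ± 0.37 (adjusted p = 0.442) and -0.47 ± 0.19 (adjusted p = 0.0949), so the 3 probe sets had the same sign and none was called. In the other Ccnd1 probe sets the E11.5 and E14.5 arrays overlapped, and in that with -0.47 the E14.5 arrays lay under those of E12.5. E12.5 A stood apart in that with -0.42, with 2840 against 1296 and 948 in the other E12.5 arrays.

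**Figure D3:**
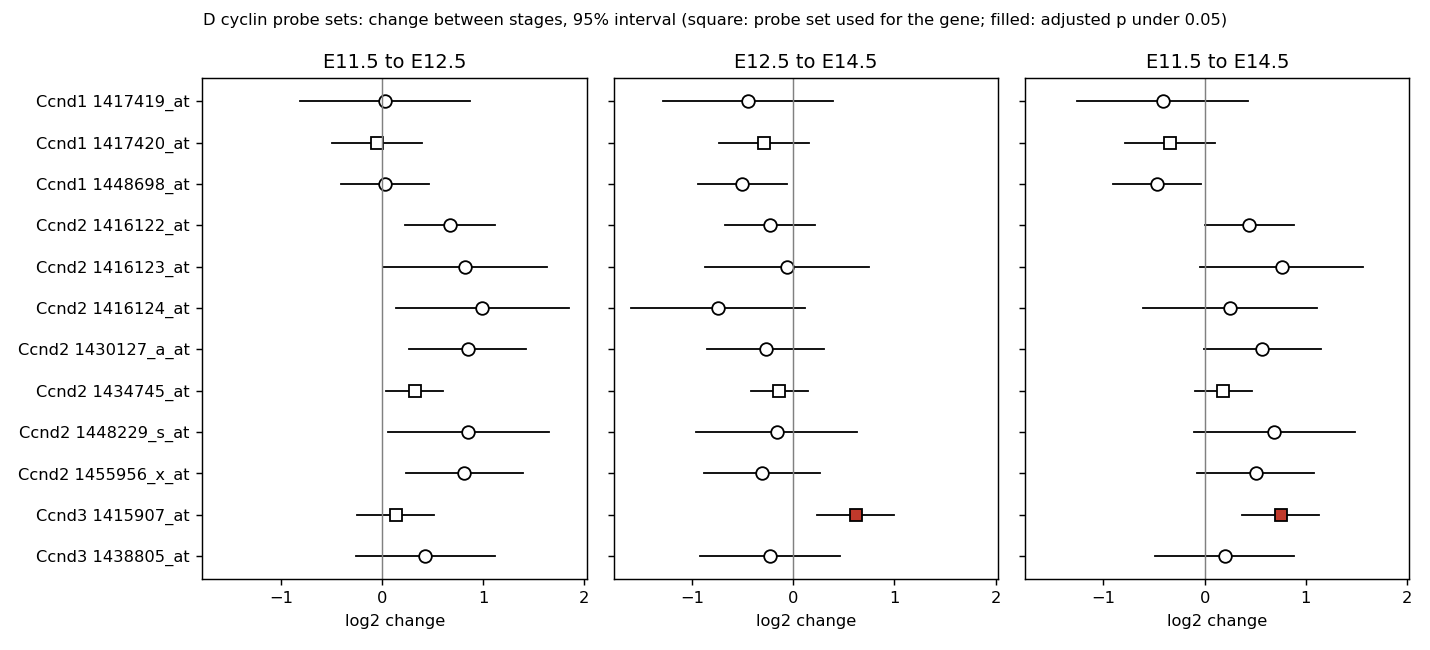
Log2 change (horizontal) of the 12 D cyclin probe sets that passed the filter (vertical) in each comparison of stages, with 95% confidence intervals from limma over all probe sets; squares mark the probe set that represents a gene, and filled symbols have an adjusted p under 0.05. All 7 Ccnd2 probe sets lie to the right of 0 from E11.5 to E12.5, all 3 Ccnd1 probe sets lie to the left of 0 from E11.5 to E14.5, and the filled squares belong to Ccnd3.

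The pathway genes that D cyclins and their inhibitors act on were described from lists chosen for their role. Of 25 tested genes of the G1 machinery, 12 fell and 1 rose between E11.5 and E14.5, beside 17.7% and 22.9% of all genes. The median log2 change was -0.55, beside 0.00345 over all genes. After median centring 6 fell and 1 rose (median -0.74), beside 1058 and 1275 of all 11575 genes (median -0.20). Cdk4, the kinase partner of D cyclins, fell from 7723 ± 541 (SD, n = 3) to 4949 ± 260 (log2 -0.64, adjusted p = 0.00320), and its relative Cdk6 fell from 1481 ± 458 to 712 ± 138 (-1.03, adjusted p = 0.00849). Cdk2 was at 2448 ± 288 and 2006 ± 668 (-0.33, adjusted p = 0.273). Among the E2F factors, E2f7 (-1.28), an atypical repressor, and E2f5 (-1.12) fell most, and E2f3, an activator, fell by 0.81 on the log2 scale. Cdc25a, which encodes a phosphatase that activates CDK2, fell between E12.5 and E14.5 (-0.59, adjusted p = 0.0181). The gene that rose was Rbl2, which encodes p130, the retinoblastoma relative of resting cells: from 180 ± 30.7 to 292 ± 40.7 and 512 ± 48.8 (log2 1.52 ± 0.17, adjusted p = 1.4e-04). Rb1 was at 551 ± 70.6 and 707 ± 13.1 (0.37, adjusted p = 0.0885), while Rbl1, which encodes p107, fell (-0.65, adjusted p = 0.0279).

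Of 20 tested S-phase and mitosis genes, 17 fell and none rose between E11.5 and E14.5 (median -0.89), beside 17.7% and 22.9% of all genes. Between E12.5 and E14.5, 12 of the 20 fell, beside 1079 of all 11575 genes. Among the 12 was the topoisomerase gene Top2a (-0.93, adjusted p = 0.00586, limma). After median centring 14 fell over the whole course and 1 between E12.5 and E14.5 (medians -1.09 and -0.77). Of all 11575 genes, 1058 and 271 fell after this centring (medians -0.20 and -0.16). The ribonucleotide reductase gene Rrm2 (-1.56 ± 0.15), the replication licensing gene Cdc6 (-1.33 ± 0.22) and the helicase gene Mcm5 (-1.21 ± 0.16) fell most. The proliferation marker Mki67 fell from 8091 ± 1839 to 4205 ± 763 (-0.94, adjusted p = 0.00782), so its transcript was still measured well above the floor at E14.5. Between E11.5 and E12.5 limma called no gene of the G1 and S-phase lists, beside 3.55% of all genes. The median changes of the 2 lists were -0.13 and -0.20, beside 0.0441 over all genes.

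Of 13 tested p53 target genes other than Cdkn1a, 4 rose and 1 fell between E11.5 and E14.5 (median -0.0111), beside 40.5% of all genes called in either direction. Without E14.5 A, 3 rose and 3 fell (median 0.0442), beside 2372 and 1794 of all 11575 genes. Perp, which encodes a desmosomal protein of epithelia, rose most (2.87 ± 0.23), followed by Btg2 (1.43 ± 0.43), an antiproliferative gene, Phlda3 (1.22 ± 0.21) and Ccng1 (0.84), and the stress gene Gadd45a fell (-1.10 ± 0.24). Between E11.5 and E12.5 Perp (1.12) and the kinase gene Plk2 (0.87, adjusted p = 0.0170) rose, beside 3.55% of all genes called in either direction. Mdm2, the feedback inhibitor of p53, was at 1141 ± 83.6 and 1056 ± 246 (-0.14, adjusted p = 0.574). Of 10 tested genes known as regulators of the members, 1 rose and 3 fell, again beside 40.5% of all genes. Klf4, an activator of Cdkn1a, rose from 903 ± 232 to 8074 ± 2581 (3.14 ± 0.32), while Mycn, an activator of Ccnd2, fell from 2260 ± 614 to 481 ± 64.9 (-2.20 ± 0.23). Ezh2, the methyltransferase of the Polycomb complex that silences the Cdkn2a locus, fell (-1.13 ± 0.18), with Cdkn2a under the filter at every stage, and Zbtb17, which encodes the repressor and activator Miz1, fell by 0.70 on the log2 scale.

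**Figure D4:**
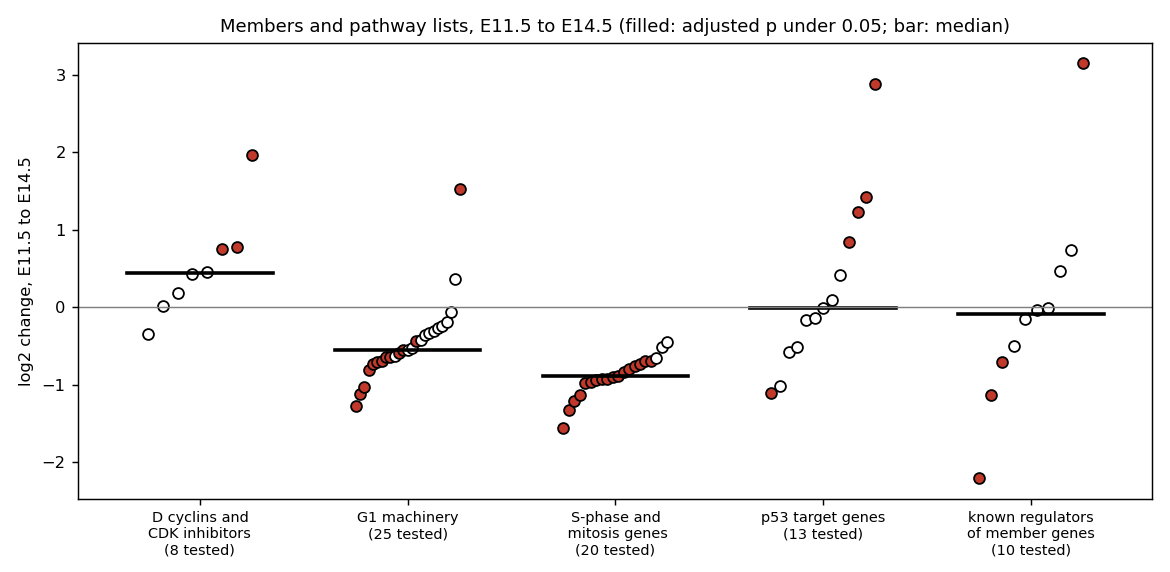
Log2 change from E11.5 to E14.5 (vertical) of each tested gene in the members and in 4 lists of pathway genes (horizontal), in ascending order within a list; filled points have an adjusted p under 0.05 by limma over all genes, and the bar is the median. The median is 0.44 for the members, -0.55 for the G1 machinery and -0.89 for the S-phase and mitosis genes, and Rbl2 is the filled point above 0 in the G1 list.

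Markers of other cell types also differed between stages or between the arrays of a stage. The summed signal of 10 cartilage markers was between 15645 and 18580 at E11.5, between 24116 and 29511 at E12.5, and at E14.5 it was 74336 in A, 17584 in B and 8484 in C. The E14.5 order A, B, C is also that of Cdkn2c (915, 769 and 383), and A is highest for Cdkn1a (691). It is the reverse of the order of Cdkn1c. Ccnd3 had the order A, B, C at every stage, while the cartilage sum was highest in C at E11.5 and E12.5. Without E14.5 A the log2 change from E11.5 to E14.5 was 1.71 for Cdkn2c, 0.64 for Ccnd3 and 0.82 for Cdkn1c, each still called. The sum is carried by Col2a1 and Col9a1. In E14.5 C it was under the E11.5 range, but 5 of the 10 markers, among them Acan, Hapln1 and Cytl1, were above every E11.5 array there. Above every E12.5 array were 2 of the 10 markers in E14.5 C, 5 in E14.5 B and 9 in E14.5 A. The part of cartilage cells in the values of Cdkn2c, Ccnd3, Cdkn1c and Cdkn1a was not tested. The summed signal of 9 skeletal muscle markers was between 4129 and 6884 at E11.5, 6594 and 12089 at E12.5 and 9068 and 12089 at E14.5, so it was higher at E14.5 than at E11.5 in all arrays. Actc1 was the largest part of this sum (mean 2252 at E11.5 and 5511 at E14.5). Myog, Pax7, Tnnt1, Myl1 and Mylpf were also higher in all E14.5 arrays than in all E11.5 arrays. Pax3 was instead lower (means 235 and 82.4) without overlap, and Myf5 and Myod1 overlapped between these stages. The part of muscle cells in the rise of Cdkn1c, Cdkn2c and Ccnd3 was not tested. Endothelial markers (6 genes) summed to 242 to 504 at E11.5 and to 949 to 1393 at E14.5, higher in all arrays of the later stage, with Pecam1 between 11.2 and 72.3 in all arrays. Epithelial markers (6 genes) summed to 480 to 561 at E11.5 and 860 to 1157 at E14.5, and the part of these cells in the rise of Perp was not tested. Blood and leukocyte markers (6 of 7 genes on the array) summed to 590 to 3257 at E11.5 and 285 to 803 at E14.5. At E11.5 this sum was mostly the globin gene Hbb-y (338.5 to 2569). The leukocyte markers Ptprc (means 11.7 and 42.1, near the floor) and Csf1r (77.1 and 138) were instead higher in all E14.5 arrays. Neural and Schwann cell markers (3 of 5) summed to 253 to 304 at E11.5 and 121 to 189 at E14.5. Of these Tubb3 was lower at E14.5 (means 116 and 22.4), while Sox10 and Elavl4 overlapped. Every marker gene on the array exceeded the floor in 1 or more arrays.

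**Figure D5:**
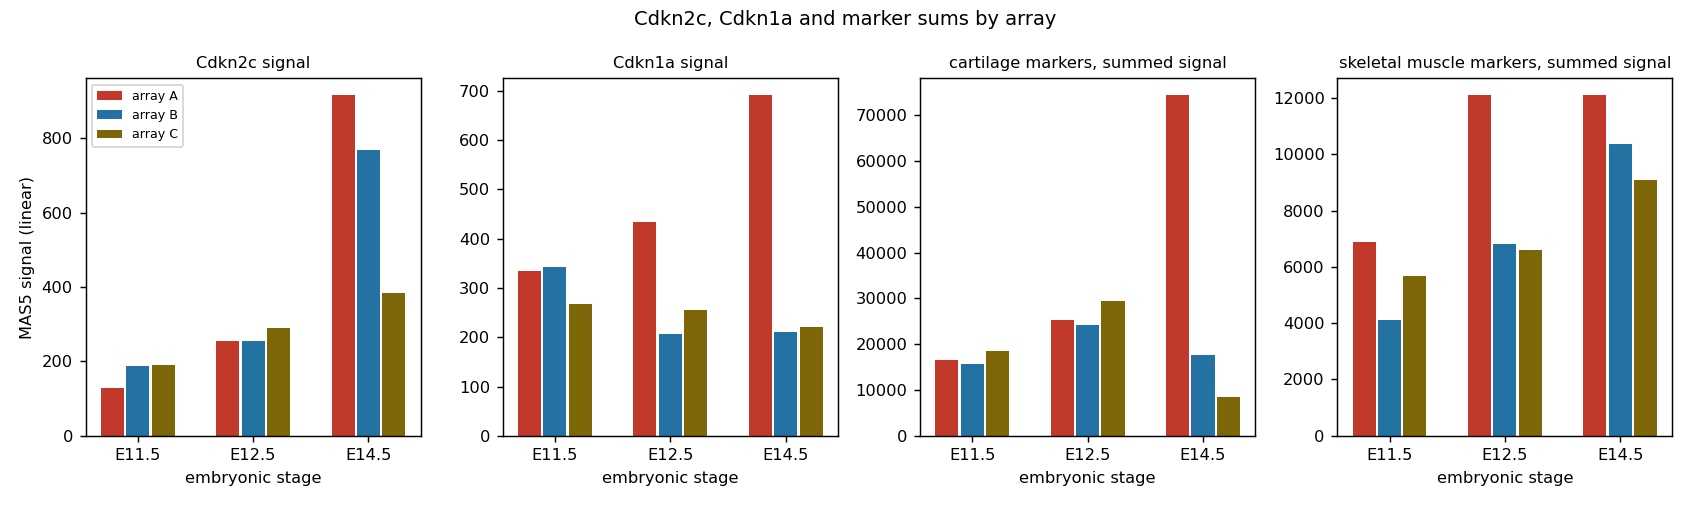
Signal on a linear axis from 0 (vertical) in each array by embryonic stage (horizontal) for Cdkn2c, Cdkn1a and the sums of 10 cartilage and 9 skeletal muscle marker genes. E14.5 A has the highest cartilage sum (74336), the highest Cdkn2c signal (915) and the highest Cdkn1a signal (691), and E14.5 C has the lowest of the 9 cartilage sums (8484).

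For the 3 genes that differed among stages, the tested genes outside the members were ranked by Pearson's r of log2 signals over the 9 arrays. Arrays of a stage share their stage, so r describes these arrays only. For Ccnd3 the most similar genes were Arfgap1 (r = 0.991), Pmepa1 (0.989) and Plp2 (0.986). For Cdkn1c they were Antxr2 (0.984), Fjx1 (0.979) and Lgals1 (0.976), the last rising from 15565 ± 643 (SD, n = 3) at E11.5 to 35383 ± 4262 at E14.5. For Cdkn2c they were Tmem64 (0.980), Slc39a11 (0.979) and Kctd14 (0.979). No gene was among the first 3 of more than 1 member. Between the members themselves r was 0.867 for Ccnd3 and Cdkn2c, 0.850 for Cdkn1c and Cdkn2c and 0.783 for Ccnd3 and Cdkn1c. These genes were all called for a rise by E14.5, and that choice alone favours a high r between them. Cdkn2d, which was not called, had r of 0.702 with Ccnd3, 0.699 with Cdkn2c and 0.492 with Cdkn1c. For Ccnd1 and Cdkn1c r was -0.64.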

How the data were processed

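Total RNA of sorted cells was hybridized to Affymetrix Mouse Genome 430 2.0 arrays, and the authors deposited 1 linear intensity per probe set and array, the MAS5 signal, which the submitters' processing notes name with Affymetrix Expression Console 1.1. Detection calls and a genome build were not used here. The trimmed means of the 9 arrays were all 500, leaving out 2% of signals at each end, so no further normalization was applied. Of 45101 probe sets, 34945 had 1 gene symbol in the platform annotation (34741 matched RefSeq by gene identifier, which gave the current symbol); 932 with several symbols, 9160 not listed and 64 controls were left out. For each of 18193 genes the probe set of highest mean on the log2 scale was used, _x_at sets only where there was no other. Signals under 22.7 were raised to this floor, log2 values were taken, and genes above 90.6 in 3 or more arrays were tested (11575 genes; 20885 probe sets in the separate fit of all probe sets). limma 3.58.1 in R 4.3.3 compared the stages in 1 fit of 9 arrays with 6 residual degrees of freedom, two-sided, with Benjamini-Hochberg adjustment over all features; the code was tested on simulated data. Means are given with the SD before the floor was applied. The number of arrays limits the precision.

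All members are named at every probe set that bears on a result, with up to 3 called genes in each direction from each pathway list and the 3 most similar genes of each member that differs among stages; other list genes (Cdk2, Cdk4, E2f3, Rb1, Rbl1, Mki67, Mdm2) were named after their values were seen, for their role. The members and lists were chosen with earlier results of these data known. The labels do not explain the array letters, so the main fit held no block for them. Arrays with the same letter were checked as possible pairs. Their deviations from stage means correlated at -0.00516 to 0.52, and the own letter correlated best in 8 of 9 comparisons. A shared effect of the letters is therefore not excluded, and a fit with the letters as a block is among the alternatives. The alternatives were 2 other floors, no filter, quantile normalization, median centring, the mean of probe sets, another variance prior, array weights, a fit of the stages compared alone, the letters as a block, the 3' to 5' ratio as a covariate, and arrays left out.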

Additional observations from a re-analysis of the deposited data

How the results depend on the processing

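Of 664 alternative values of the 32 log2 changes of single members, 610 kept their direction and side of the threshold, 21 lost a call, 3 gained one and 30 changed sign, all of the last from values that were not called. The number of members called between E12.5 and E14.5 was 3 and became 1 with median centring, 1 with the 3' to 5' ratio as a covariate, 0 without the letter A arrays, and 1 to 3 when single arrays were left out. With median centring the members called between E11.5 and E14.5, those that differed among the stages and the member probe sets called between E11.5 and E14.5 each went from 3 to 1, Cdkn2c remaining; calls over all genes between E11.5 and E14.5 went from 4691 to 2333. The cause was not tested.

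The mean of probe sets turned the change of Ccnd1 from E11.5 to E12.5 to 0.00279 (-0.20 to 0.0824 without single arrays) and that of Ccnd3 to -0.0131. Cdkn1a from E11.5 to E12.5 ran from -0.44 to 0.0882 without single arrays. Cdkn1a from E12.5 to E14.5 was -0.0730 with the mean of probe sets, -1.9e-04 with array weights, -0.0926 without the letter A arrays and -0.40 to 0.47 without single arrays. Cdkn1a from E11.5 to E14.5 was -0.11 with quantile normalization, -0.18 with median centring, -0.42 with the mean of probe sets, -0.26 with array weights, -0.49 without the letter A arrays and -0.54 to 0.32 without single arrays. Ccnd2 from E11.5 to E14.5 was -0.0139 with median centring. The difference between the intervals for Cdkn1b was 0.16 with the mean of probe sets, 0.12 with array weights, 0.39 without the letter A arrays and -0.27 to 0.20 without single arrays. Without single arrays that difference was -0.51 to 0.0677 for Ccnd1, -0.26 to 0.91 for Cdkn1a, -0.0361 to 0.26 for Cdkn1c and -0.16 to 0.18 for Cdkn2d.

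With the letters as a replicate block 3 members were called between E11.5 and E14.5, as without it, and 5262 genes in place of 4691. Deviations from the stage means correlated at -0.00516 to 0.52 over the 9 same-letter pairs. In 8 of these 9 comparisons the array of the later stage correlated best with its own letter at the earlier stage. Alternatives without E11.5 B for the Ccnd2 probe sets, and the lists under other scalings and without E14.5 A, were added after the data were seen. Signals near the floor of 22.7 limit what can be said of Cdkn2a and Cdkn2b.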
